A study of Homo sapiens with 30 samples.

Results

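The 10 genes described here encode receptor tyrosine kinases studied in glioma, namely EGFR, ERBB2, PDGFRA, PDGFRB, MET, AXL, FGFR1, IGF1R, EPHA2 and DDR1. They were taken by symbol from a list drawn up with earlier results of these data known, and all 10 were present among the 61471 genes of each of the 2 expression tables and lay above a mean of 0.5 TPM in both lines. RNA was measured in 28 libraries of U87 and U251, long-established human glioblastoma lines both known for past misidentification, with no STR check described for these cultures after receipt. Cells of all groups were labelled WT for genotype and grown in the same medium, and were Untreated, exposed to IFN-γ for 3, 14 or 28 days (D3, D14 and D28), or exposed for 14 days and then kept without IFN-γ until day 28 (D28WO). U251 had 3 libraries in each group. U87 had 3 for Untreated, D28 and D28WO and 2 for D3 and D14, because 2 columns of its table shared a name and were used in no step. The sources differ on the dose, given as both 1 µg/mL and 1 µL/mL in the labels and as 10 ng/mL in the study's methods. They also differ on the day of the Untreated cells, given as day 3 in the labels and day 0 in the methods.

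A receptor tyrosine kinase spans the cell membrane, binds a ligand outside the cell, pairs with another receptor and phosphorylates tyrosines on itself, which recruit adaptors that switch on the RAS-ERK and PI3K-AKT branches. EGFR, PDGFRA and MET are recurrently amplified or mutated in glioblastoma, and high PDGFRA is a feature of its proneural type, whereas AXL and EPHA2 are usually associated with its mesenchymal type. Feedback inhibitors such as the Sprouty proteins and dual-specificity phosphatases are themselves transcribed when the ERK branch is active. IFN-γ acts through another kind of receptor, which uses JAK kinases, and its target genes carry an element called GAS, while complexes of interferon regulatory factors bind an element called ISRE.

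PDGFRA in U251 and IGF1R in U87 changed most against Untreated, so the 250 bases before their start sites are shown to let the sequence be read beside the values. All sequences are from RefSeq, build GRCh38.p14, 5′ to 3′ on the strand of the gene, and 9 of the 10 receptors were matched by symbol, the exception being FGFR1. Capitals mark a match to an AP-1 element (TGANTCA) in the upstream PDGFRA window, chr4:54229043-54229292 on the plus strand, where it lay 32 bases before the start, and matches to a GC box (GGGCGG) in the downstream PDGFRA window and in IGF1R.
PDGFRA, upstream start: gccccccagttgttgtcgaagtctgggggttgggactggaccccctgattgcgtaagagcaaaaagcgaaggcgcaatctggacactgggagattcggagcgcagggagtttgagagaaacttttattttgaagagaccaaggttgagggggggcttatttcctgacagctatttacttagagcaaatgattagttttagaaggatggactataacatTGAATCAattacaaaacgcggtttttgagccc
PDGFRA, downstream start: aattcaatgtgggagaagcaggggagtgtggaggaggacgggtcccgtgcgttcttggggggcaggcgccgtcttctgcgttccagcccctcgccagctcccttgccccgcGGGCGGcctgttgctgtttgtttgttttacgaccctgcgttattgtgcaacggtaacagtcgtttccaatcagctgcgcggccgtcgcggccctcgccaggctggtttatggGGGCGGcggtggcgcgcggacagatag
IGF1R: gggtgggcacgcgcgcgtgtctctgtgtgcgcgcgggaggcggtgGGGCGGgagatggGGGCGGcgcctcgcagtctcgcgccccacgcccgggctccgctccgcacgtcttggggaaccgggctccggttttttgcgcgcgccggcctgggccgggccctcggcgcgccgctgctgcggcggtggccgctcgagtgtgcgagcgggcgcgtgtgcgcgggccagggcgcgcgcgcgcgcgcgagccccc

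The downstream PDGFRA window, chr4:54233710-54233959 on the plus strand, lies in an intron of the longer transcripts and held GC boxes 139 and 27 bases before its start. The IGF1R window, chr15:98648289-98648538 on the plus strand, held GC boxes 205 and 192 bases before the start and was 81.2% G and C, against 46.8% in the upstream and 64% in the downstream PDGFRA window. Searched on both strands over 300 bases, from 250 before to 50 after the start, the 19 windows of the 9 matched receptors held no GAS match (TTCNNNGAA), a pattern found in 7.66% of the 35116 windows of the whole table. An ISRE pattern was in 3 windows, those of PDGFRB, AXL and DDR1, and in 3.57% of all windows. GC boxes were in 11 windows of 8 receptors (45% of all windows), AP-1 elements in 4 windows of 4 receptors (7.71%) and a TATA box (TATAAA) in 1 window, of EGFR (11.5%). The 3 stretches with the ISRE letters in capitals, 30 bases each, show the interferon-type pattern itself.
PDGFRB: gaaaaaaactGAAATTGAAAacagacgcac
AXL: cgctgacggaGAAAAGGAAActttgtgtct
DDR1: ccaatgccgcTTTCTGTTTCctctgcctcc
They lie at chr5:150155985-150156014 on the minus strand, chr19:41226557-41226586 on the plus strand and chr6:30880778-30880807 on the plus strand, 159, 188 and 182 bases before the start of their window in that order. The starts of the AXL and DDR1 windows lie inside the genes as placed below, so these stretches belong to alternative starts. The capitals of PDGFRB and AXL match on the reverse strand. These are matches of letters and were not tested as binding sites.

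Interferon-responsive genes were read first, as a check on the labels. IRF1, a transcription factor directly induced by IFN-γ, was at 136, 130 and 134 TPM (transcripts per fixed total of transcripts, so that a level is scaled for gene length and library) in the Untreated U87 libraries, at 445 and 450 at D3, at 134 and 110 at D14, at 539, 457 and 443 at D28 and at 527, 545 and 457 in D28WO. The U87 libraries labelled D14 thus overlapped Untreated, and those labelled D28WO lay as high as D28. Of 7 interferon-responsive reference genes (IRF1, GBP1, GBP2, TAP1, PSMB9, B2M and WARS1), all 7 rose in U87 at D3, D28 and D28WO, while none passed the test at D14 with limma, where 0 also had an unadjusted p under 0.05. In U251 7, 6, 7 and 7 of them rose at D3, D14, D28 and D28WO, with IRF1 at 141 TPM on average in Untreated cells and 589, 300, 603 and 620 TPM thereafter. Groups are called by their labels below, although the U87 libraries labelled D14 did not carry this response and the D28WO libraries of both lines did. Whether these labels are right was not tested. Leaving the D14 or the D28WO group out of the fit, an alternative added after the values were seen, kept the count of receptors that passed within 1.5 times in every comparison, although it ended some single calls given with each receptor.

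Markers of the cell type were mixed. Of 8 glial or neural stem cell genes, 7 were above 1 TPM on average in Untreated cells of either line, but SOX2 was near 0 in U87 (0.219 TPM) and OLIG2 was listed at 0 in all Untreated U251 libraries, against 159 TPM for SOX2 in U251. The summed level of the 8 genes in U251 ranged from 3804 to 3901 TPM in Untreated, 1587 to 1915 at D3, 2721 to 3103 at D14, 1786 to 2000 at D28 and 2167 to 2289 in D28WO. In U87 it ranged from 2035 to 2291 TPM in Untreated and from 1576 to 1741 in D28WO. Of the 7 of them tested in U251, 6, 5, 6 and 5 fell at D3, D14, D28 and D28WO, GFAP, the astrocyte filament protein, among them at 1258, 342, 713, 243 and 573 TPM over the 5 groups. Others went the other way there: SLC1A3, a glutamate transporter, rose from 115 to 160 TPM at D28, SOX2 was at 173 TPM in D28WO against 159 in Untreated without passing, and OLIG2 was at 1.10 TPM at D28. Of the 7 tested in U87, 4 fell and 2 rose in D28WO, the rises being OLIG2 from 7.16 to 26.7 TPM, with libraries apart, and GFAP from 4.84 to 14.2 TPM. The 5 leukocyte markers summed to at most 3.04 TPM in any library. The sum of the 3 endothelial markers in U251 was 26.6 to 38.4 TPM in Untreated, 2.45 to 3.46 at D3 and 9.79 to 21.4 at D14. It was 4.16 to 4.82 TPM at D28 and 4.31 to 8.80 in D28WO. Among them CDH5 fell in all of these groups, from 27.6 TPM in Untreated U251 to 0.565, 11.5, 1.26 and 2.25 TPM. In U87 the 4 epithelial markers summed to 3.90 to 9.87 TPM in Untreated and 1.91 to 4.62 in D28WO, where EPCAM fell from 6.32 to 1.20 TPM. CDH1 was at 1.61 TPM there against 0.389 in Untreated, with all libraries higher. It reached the level tested only through the groups where it is high, so it is given without a test. The part of these shifts in the receptor results was not tested. In RNA of whole cultures, fewer cells of a type and less RNA per cell cannot be told apart.

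Levels are taken as TPM, per gene length, and are compared within a line, because the tables of the lines were normalized separately. A supplementary sheet calls the same matrices CPM. If that is right, levels are not per gene length and the order of the receptors below would also reflect gene length. In Untreated U87 the order was AXL (179 TPM), FGFR1 (167), MET (114), DDR1 (76.3), EGFR (58.9), EPHA2 (56.6), PDGFRB (47.3), ERBB2 (10.6), IGF1R (9.46) and PDGFRA (4.38). Libraries overlapped in 4 of the 9 neighbouring pairs, so that AXL and FGFR1, EGFR and EPHA2, EPHA2 and PDGFRB, and ERBB2 and IGF1R were not separated beyond their spread. In Untreated U251 the order was DDR1 (289 TPM), PDGFRA (213), MET (122), AXL (109), EPHA2 (107), EGFR (101), ERBB2 (76.8), IGF1R (59.1), FGFR1 (30.9) and PDGFRB (8.48), and libraries overlapped in 1 of 9 pairs, AXL and EPHA2. PDGFRA was therefore lowest in U87 and near the top in U251, above 97.2% of the genes tested there. At D3 it stood at rank 9 in U251, above 60.5% of genes, while FGFR1 stood at rank 5. The 10 receptors summed to 1117 TPM ± 1.71 (SD, n = 3) in Untreated U251, 852 ± 40.1 at D3, 1020 ± 42.0 at D14, 819 ± 22.9 at D28 and 892 ± 21.1 in D28WO. In U87 the sums were 723 TPM ± 49.5 (SD, n = 3), 707 ± 21.8 (n = 2), 759 ± 21.2 (n = 2), 769 ± 64.6 (n = 3) and 636 ± 39.4 (n = 3) in the same order of groups.

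**Figure D1:**
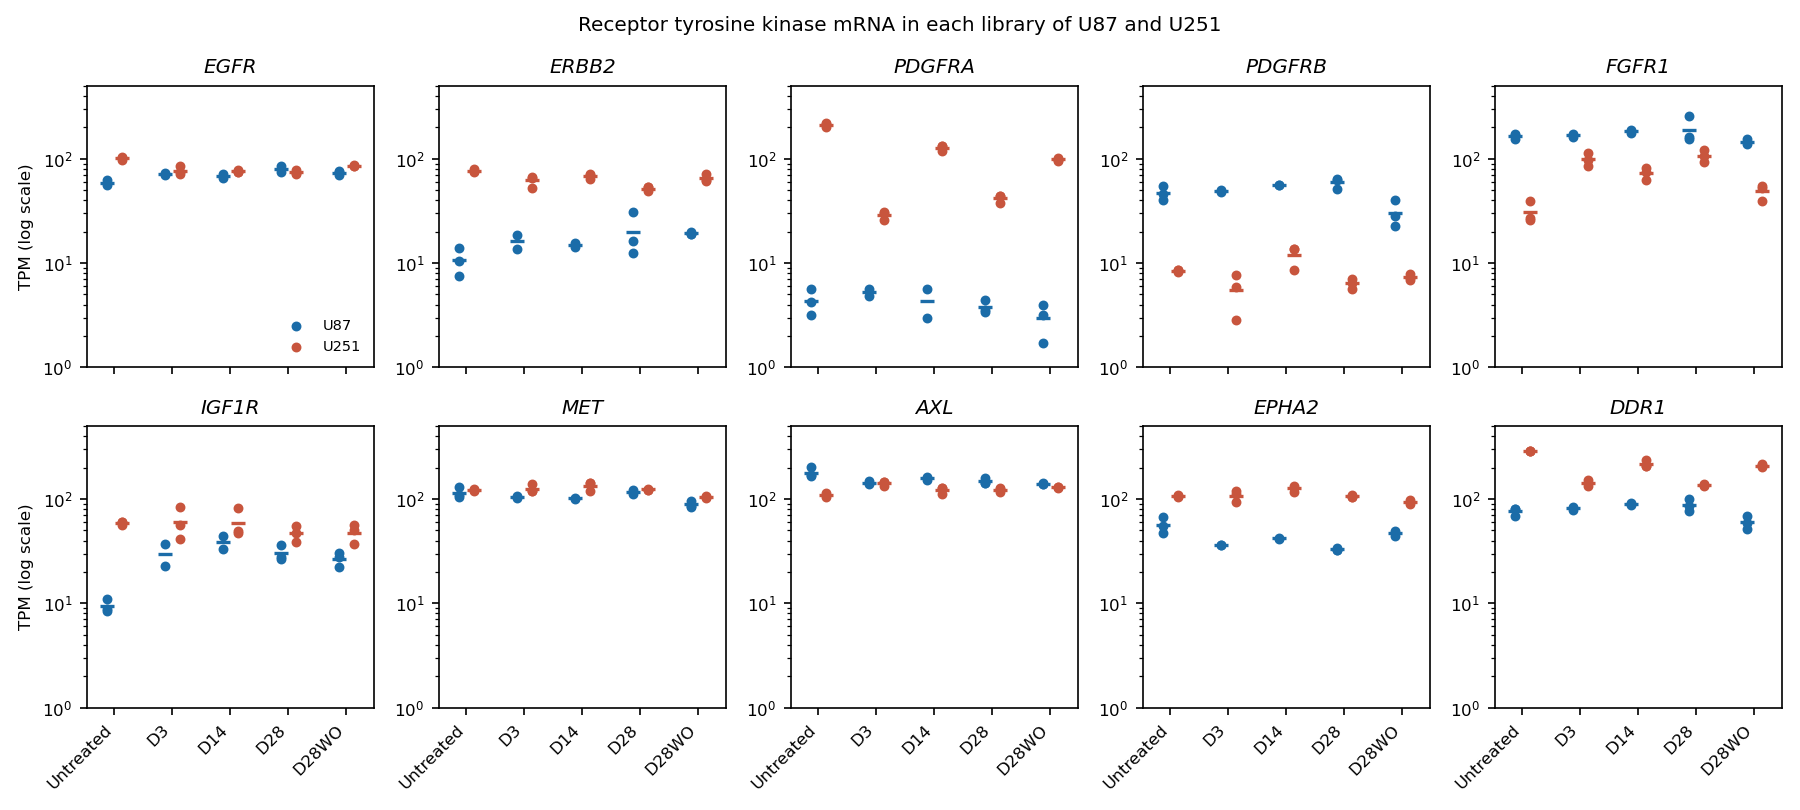
Level of the 10 receptors in each library, in TPM on a log axis, by group and by line, with each point 1 library and each bar the group mean. PDGFRA in U251 dropped from 213 TPM in Untreated to 29.0 TPM at D3, and IGF1R in U87 stood at 9.46 TPM in Untreated and above 22 TPM in every other library.

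Changes were fitted with limma on log2(TPM + 1), so that a fold change of a low gene is understated, and a gene passed with a Benjamini-Hochberg adjusted p under 0.05 over all genes tested of its line. Comparisons with Untreated share their control libraries. The Untreated cells were all collected at the same early time, and there was no untreated library from the later days. Time in culture and IFN-γ exposure were therefore not separated in the comparisons of the later groups with Untreated. The part of time in culture was not tested. Each count of receptors is followed, in brackets, by the share of all genes tested that passed in the same way. In U87, with 22918 genes tested, 3 of the 10 receptors passed at D3 (16.7%), 1 higher (12.4%) and 2 lower (4.28%). At D14 IGF1R alone passed (5.16%), as higher (4.14%), and none was lower (1.02%). At D28 4 passed (23.8%), 2 higher (17.2%) and 2 lower (6.55%), and in D28WO 7 passed (42%), 3 higher (28.6%) and 4 lower (13.4%). Between D14 and D3 none passed (4.79%; higher 1.47%, lower 3.32%) and between D28 and D14 none did (4.06%; higher 2.94%, lower 1.12%), where 0 and 2 had an unadjusted p under 0.05. Between D28WO and D28 4 passed (18.3%), EPHA2 higher (9.9%) and 3 lower (8.44%). With an absolute log2 fold change over 1 as well, IGF1R alone passed at D3 (6.23%), D14 (2.1%), D28 (7.38%) and D28WO (14.9%), and no receptor did between D14 and D3 (2.63%), D28 and D14 (2.12%) or D28WO and D28 (5.53%).

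In U251, with 23667 genes tested, 6 receptors passed at D3 (40.9%), 2 higher (24.9%) and 4 lower (16%). At D14 5 passed (21.2%), 2 higher (13.8%) and 3 lower (7.31%). At D28 6 passed (40.6%), 2 higher (25.9%) and 4 lower (14.7%), and in D28WO 6 passed (27.7%), 2 higher (14.3%) and 4 lower (13.4%). EGFR, PDGFRA and DDR1 were lower and FGFR1 was higher in all 4 of these comparisons. Between D14 and D3 5 passed (25.5%), 4 higher (12.8%) and AXL lower (12.6%), between D28 and D14 6 passed (20.8%), FGFR1 higher (11.3%) and 5 lower (9.48%), and between D28WO and D28 6 passed (29.1%), 4 higher (10.3%) and 2 lower (18.8%). With an absolute log2 fold change over 1 as well, PDGFRA, FGFR1 and DDR1 passed at D3 (14.3%) and D28 (15.2%), FGFR1 at D14 (5.76%) and PDGFRA in D28WO (7.45%). The same limit left PDGFRA and PDGFRB between D14 and D3 (6.49%), PDGFRA between D28 and D14 (5.84%), and PDGFRA and FGFR1 between D28WO and D28 (9.26%).

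The median log2 fold change of the 10 receptors against Untreated was 0.09, 0.18, 0.17 and -0.29 in U87 at D3, D14, D28 and D28WO, where the median of all genes was 0.20, 0.15, 0.19 and 0.25. In U251 it was -0.16, 0.05, -0.35 and -0.23, against 0.13, 0.10, 0.16 and 0.02 for all genes. Since all genes were shifted upward by up to 0.25, the small changes of EGFR and AXL are also given relative to that median. The number of genes above 0 moved with these comparisons in U87, at 24223 to 25459 in the Untreated libraries and 26096 to 28649 in all others, without overlap. For U251 the number was 24450 to 27187 in Untreated, 26475 to 28365 at D3, 27763 to 29771 at D14, 28955 to 30246 at D28 and 25633 to 26378 in D28WO. Its part in the results was not tested. Libraries of a group lay all on one side of Untreated in U87 and all on the other side in U251 for 2 of the 10 receptors at D3 (6.77% of the 20473 genes tested in both lines), 4 at D14 (6.41%), 3 at D28 (6.46%) and 4 in D28WO (6.22%).

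**Figure D2:**
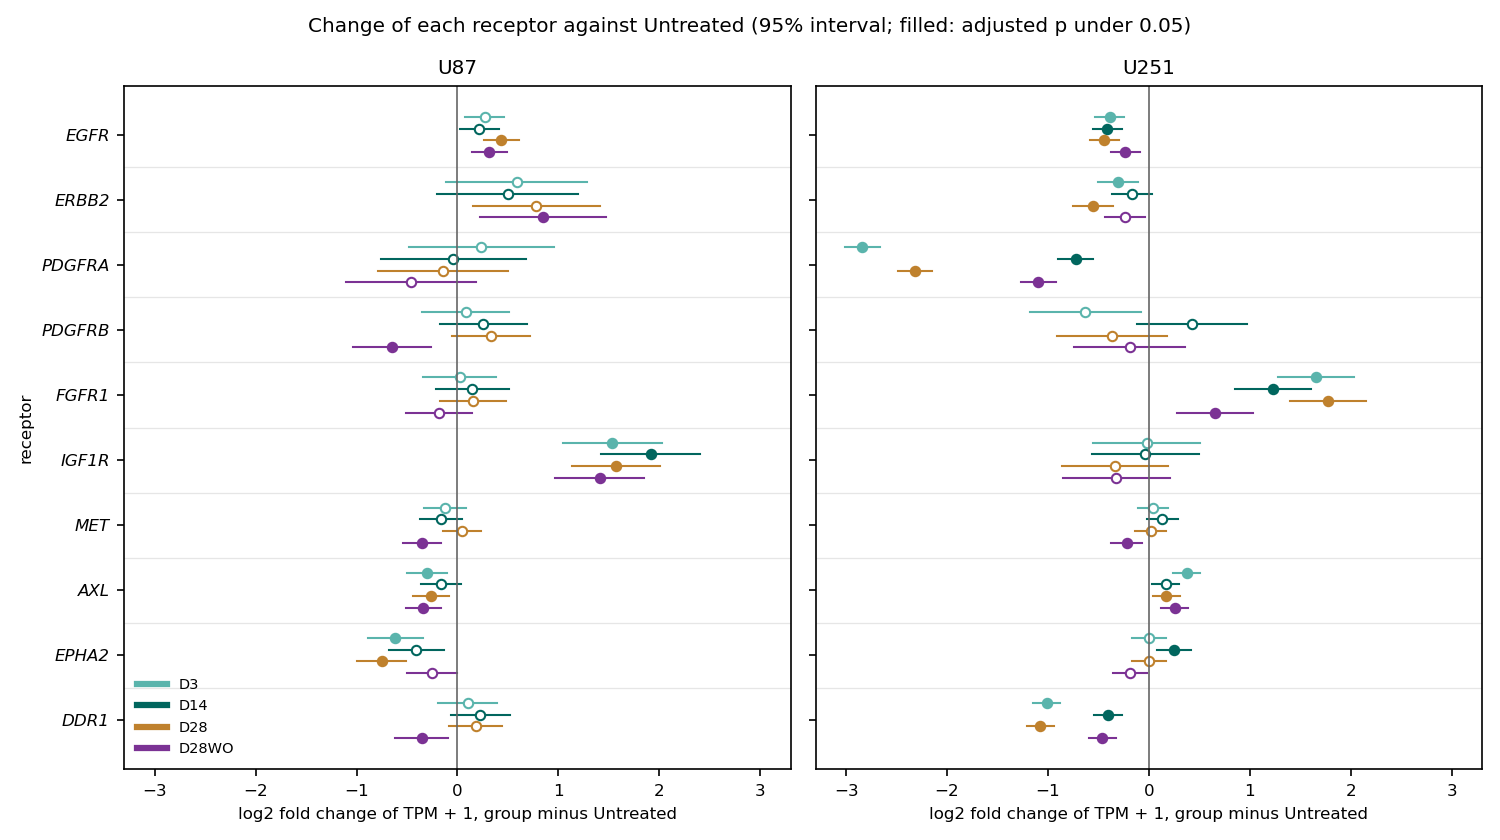
Log2 fold change of each receptor against Untreated at D3, D14, D28 and D28WO, on the log2(TPM + 1) scale, with 95% confidence intervals from limma, for U87 and U251, and filled points where the adjusted p is under 0.05. PDGFRA at D3 and D28 of U251 lies furthest below 0 (-2.84 and -2.32), and IGF1R of U87 and FGFR1 of U251 lie furthest above it (up to 1.92 and 1.77).

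PDGFRA binds platelet-derived growth factors and lies at 4:54229280-54298245 (plus strand, GRCh38, GENCODE annotation). In U251 it was at 201, 221 and 217 TPM in Untreated, at 30.7, 25.9 and 30.3 at D3, at 132, 132 and 120 at D14, at 44.3, 37.7 and 43.9 at D28 and at 102, 96.3 and 98.5 in D28WO. Every other group lay below every Untreated library, no 2 groups overlapped, and the level was lowest at D3 and D28 and intermediate at D14 and in D28WO. PDGFRA fell by 2.84 on the log2 scale at D3 (SE 0.08, adjusted p = 7.62e-12), by 0.73 at D14 (adjusted p = 2.83e-05), by 2.32 at D28 (adjusted p = 6.18e-11) and by 1.10 in D28WO (adjusted p = 2.19e-07). Between the other groups it was higher by 2.11 at D14 than at D3 (adjusted p = 1.21e-09), then fell by 1.59 from D14 to D28 (adjusted p = 1.54e-08), and was higher by 1.22 in D28WO than at D28 (adjusted p = 2.02e-07). In U87 the gene was low throughout, between 1.71 and 5.70 TPM in all 13 libraries, every other group overlapped Untreated (3.19 to 5.68 TPM), and no comparison passed.

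PDGFRB, the related receptor (5:150113839-150155872, minus strand), passed against Untreated in D28WO of U87. In that line it was at 40.0, 46.5 and 55.3 TPM in Untreated, 50.7 and 48.6 at D3, 56.7 and 55.6 at D14, 62.9, 51.6 and 64.0 at D28 and 28.0, 22.9 and 39.9 in D28WO. The libraries labelled D28WO were the lowest and overlapped no other group. PDGFRB fell by 0.65 there against Untreated (adjusted p = 0.0113; 0.0514 without Untreated replicate 3) and by 0.98 against D28 (adjusted p = 0.003). In U251 it was at 8.66, 8.21 and 8.56 TPM in Untreated, 2.86, 7.69 and 5.85 at D3, 13.7, 8.58 and 13.7 at D14, 5.67, 6.99 and 6.48 at D28 and 6.88, 7.26 and 7.80 in D28WO. All D3 libraries lay below Untreated, but they spread widely and the difference did not pass (log2 fold change -0.63, adjusted p = 0.0629), although it did with quantile normalization (0.0118), median-ratio size factors (0.037) and array weights (0.0329). D14 was higher than D3 by 1.06 (adjusted p = 0.0075; 0.0713 in a fit of these groups alone), and D28 fell by 0.79 from D14 (adjusted p = 0.041), a call that leaving out any of 5 of the 6 libraries ended (adjusted p = 0.0726 to 0.134).

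EGFR, the receptor for epidermal growth factor and its relatives (7:55019017-55211628, plus strand), moved little in size and in opposite directions in the lines. In U87 it was at 55.7, 62.5 and 58.6 TPM in Untreated, 69.3 and 73.1 at D3, 65.6 and 71.7 at D14, 80.0, 85.7 and 74.7 at D28 and 69.8, 74.6 and 76.3 in D28WO. All other libraries lay above all Untreated ones. The rise passed at D28 (log2 fold change 0.44, adjusted p = 0.00263; 0.25 relative to the median of all genes) and in D28WO (0.32, adjusted p = 0.00692; 0.06 relative to that median), and at D3 the log2 fold change was 0.27 (adjusted p = 0.0547; 0.07 relative to that median). With median-ratio size factors neither call stood (adjusted p = 0.0597 and 0.485), and with quantile normalization the D28WO call did not (0.0965).

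In U251 EGFR was at 103, 104 and 97.0 TPM in Untreated, 85.8, 74.3 and 71.7 at D3, 78.2, 74.3 and 75.1 at D14, 78.6, 72.1 and 72.4 at D28 and 87.8, 85.0 and 84.9 in D28WO. Here all other libraries lay below all Untreated ones. EGFR fell by 0.39 at D3 (SE 0.07, adjusted p = 0.000394), by 0.41 at D14 (adjusted p = 0.00073), by 0.44 at D28 (adjusted p = 0.000143) and by 0.23 in D28WO (adjusted p = 0.0188). Relative to the median of all genes these values were -0.52, -0.51, -0.60 and -0.25. D28WO was higher than D28 by 0.21 (adjusted p = 0.0349). The calls at D3, D14 and D28 stood without any single library, whereas leaving out any of 4 of 6 libraries ended the D28WO call (adjusted p = 0.0552 to 0.0706) and any of 5 of 6 the call against D28 (0.0687 to 0.113), as did a fit without the D14 group (0.0526). Reads of the antisense gene EGFR-AS1, at up to 16.2 TPM in U251, cannot be told apart from EGFR where the genes overlap, as the strand setting of the counting is not given in the sources used here.

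ERBB2, the ligandless partner of EGFR (17:39687914-39730426, plus strand), overlaps PGAP3 and MIEN1 on the other strand, which reached 92.9 and 149 TPM in U251 and 42.2 and 128 TPM in U87. In U87 ERBB2 was at 10.4, 14.0 and 7.51 TPM in Untreated, 18.6 and 13.7 at D3, 15.7 and 14.4 at D14, 30.9, 16.3 and 12.5 at D28 and 20.1, 19.0 and 19.1 in D28WO. The libraries labelled D14 and D28WO lay above all Untreated libraries, and D3 and D28 overlapped them. The rise passed in D28WO only (0.85, SE 0.29, adjusted p = 0.0323), leaving out any of 5 of 6 libraries ended that call (adjusted p = 0.0673 to 0.128), and so did quantile normalization (0.29) and median-ratio size factors (0.0763). At D28 the log2 fold change was 0.78 (adjusted p = 0.069).

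In U251 ERBB2 was at 79.3, 74.4 and 76.6 TPM in Untreated, 66.0, 67.6 and 53.1 at D3, 70.0, 72.1 and 63.4 at D14, 53.2, 53.5 and 48.8 at D28 and 71.2, 61.9 and 62.3 in D28WO. All other libraries lay below all Untreated ones, with D28 lowest on average. ERBB2 fell by 0.31 at D3 (adjusted p = 0.0164; 0.0534 to 0.0755 without Untreated replicate 1 or D3 replicate 3, and 0.0582 in a fit of the compared groups alone) and by 0.56 at D28 (SE 0.09, adjusted p = 0.000261), and in D28WO the log2 fold change was -0.24 (adjusted p = 0.0733). D28 fell by 0.40 from D14 (adjusted p = 0.00741), and D28WO was higher than D28 by 0.32 (adjusted p = 0.0178; 0.0697 to 0.0812 without D28 replicate 3 or D28WO replicate 1).

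FGFR1, a receptor for fibroblast growth factors, was among the highest receptors in U87. In U251 it was near the bottom in Untreated and at rank 4 at D28. It overlaps LETM2, which reached 36.2 TPM in U87 and 8.52 in U251. In U251 it was at 39.7, 27.1 and 26.1 TPM in Untreated, 98.1, 113 and 85.3 at D3, 74.5, 62.7 and 81.4 at D14, 107, 92.5 and 122 at D28 and 52.4, 39.2 and 55.2 in D28WO. Libraries of D3, D14 and D28 lay above all Untreated ones, while D28WO overlapped Untreated. FGFR1 rose by 1.66 at D3 (SE 0.17, adjusted p = 4.71e-06), by 1.23 at D14 (adjusted p = 0.000239), by 1.77 at D28 (adjusted p = 2.4e-06) and by 0.65 in D28WO (adjusted p = 0.0122). Leaving out any of 3 of 6 libraries ended the D28WO call (adjusted p = 0.0528 to 0.0573). D28WO fell by 1.12 from D28 (adjusted p = 0.000325), and D28 was higher than D14 by 0.55 (adjusted p = 0.0402; 0.0741 to 0.152 without any of 4 of 6 libraries). In U87 FGFR1 was at 155, 174 and 171 TPM in Untreated, 174 and 163 at D3, 178 and 191 at D14, 255, 155 and 161 at D28 and 146, 140 and 154 in D28WO, and no comparison passed.

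IGF1R, the receptor for insulin-like growth factors (15:98648539-98964530, plus strand), was the receptor with the widest change in U87. It was at 8.85, 8.48 and 11 TPM in Untreated, 37.0 and 22.9 at D3, 33.0 and 44.3 at D14, 35.9, 27.7 and 26.9 at D28 and 22.3, 27.6 and 30.6 in D28WO. Each library of the other 4 groups held at least 22.3 TPM and lay above all Untreated libraries. This included the libraries labelled D14, in which none of the interferon reference genes passed. The part of time in culture in this difference was not tested. IGF1R rose by 1.53 at D3 (SE 0.22, adjusted p = 0.00103), 1.92 at D14 (SE 0.22, adjusted p = 0.00197), 1.57 at D28 (SE 0.20, adjusted p = 0.000276) and 1.41 in D28WO (SE 0.20, adjusted p = 0.000195), and none of the comparisons of D14 with D3, D28 with D14 or D28WO with D28 passed. In U251 it was at 59.9, 60.8 and 56.6 TPM in Untreated, 84.0, 56.2 and 41.7 at D3, 47.1, 49.6 and 81.5 at D14, 39.0, 47.5 and 54.6 at D28 and 55.8, 37.0 and 50.3 in D28WO. Its D3 and D14 libraries spread around Untreated, those of D28 and D28WO lay below it, and no comparison passed.

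MET, the receptor for hepatocyte growth factor (7:116672196-116798377, plus strand), was high in both lines and passed only in the comparisons of D28WO. In U87 it was at 104, 110 and 129 TPM in Untreated, 102 and 107 at D3, 99.4 and 103 at D14, 123, 116 and 112 at D28 and 84.7, 86.6 and 95.6 in D28WO. The libraries labelled D28WO lay below all others of the line. MET fell by 0.35 there against Untreated (SE 0.09, adjusted p = 0.00627) and by 0.40 against D28 (adjusted p = 0.00851). In U251 it was at 120, 122 and 124 TPM in Untreated, 120, 138 and 119 at D3, 120, 142 and 142 at D14, 126, 123 and 121 at D28 and 107, 105 and 102 in D28WO. D28WO was again below every other library. MET fell by 0.22 against Untreated (adjusted p = 0.0316; 0.057 to 0.0929 without any 1 of the 6 libraries) and by 0.24 against D28 (adjusted p = 0.0218; 0.0528 to 0.069 without any of 4 of 6 libraries, and 0.206 with median-ratio size factors). At D28 of U251 the 95% interval of the change ran from -0.14 to 0.17.

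AXL, the receptor for the vitamin K-dependent ligands GAS6 and protein S (19:41219223-41261766, plus strand), went down in U87 and up in U251. In U87 it was at 166, 168 and 201 TPM in Untreated, 150 and 138 at D3, 163 and 154 at D14, 144, 142 and 160 at D28 and 138, 140 and 144 in D28WO. All other libraries lay below all Untreated ones. AXL fell by 0.30 at D3 (adjusted p = 0.041; 0.103 to 0.206 without Untreated replicate 3 or either D3 library), by 0.26 at D28 (adjusted p = 0.0385; 0.104 to 0.132 without Untreated replicate 3, D28 replicate 1 or D28 replicate 2) and by 0.34 in D28WO (adjusted p = 0.00591), or -0.50, -0.45 and -0.59 relative to the median of all genes. Quantile normalization ended the D3 and D28 calls (adjusted p = 0.11 and 0.146), as did fits without a filter (0.0669 and 0.0657), of the compared groups alone (0.141 and 0.121) and without the D28WO group (0.0785 and 0.0716). Array weights ended the D28 call (0.0515) and a fit without the D14 group the D3 call (0.0538).

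In U251 AXL was at 109, 105 and 114 TPM in Untreated, 147, 134 and 145 at D3, 111, 129 and 128 at D14, 126, 118 and 125 at D28 and 129, 131 and 131 in D28WO. D3, D28 and D28WO lay above all Untreated libraries, and 1 of the D14 libraries overlapped them. AXL rose by 0.37 at D3 (SE 0.06, adjusted p = 0.000288), by 0.17 at D28 (adjusted p = 0.0414; 0.0879 to 0.135 without any of 4 of 6 libraries, 0.619 with median-ratio size factors and 0.0672 without the D28WO group) and by 0.25 in D28WO (adjusted p = 0.00748). Relative to the median of all genes the rises were 0.24 at D3, 0.0079 at D28 and 0.24 in D28WO. From D3 to D14 it fell by 0.21 (adjusted p = 0.0241; 0.0704 to 0.104 without any of 3 of 6 libraries, and 0.067 with median-ratio size factors). An antisense transcript over AXL reached 18 TPM in U251 and was listed at 0 in U87.

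EPHA2, a receptor for ephrin-A ligands (1:16124337-16156069, minus strand), was at 54.8, 67.6 and 47.5 TPM in Untreated U87, 36.4 and 36.0 at D3, 41.7 and 42.3 at D14, 32.3, 33.9 and 32.5 at D28 and 47.4, 44.1 and 49.3 in D28WO. D3, D14 and D28 lay below all Untreated libraries and D28WO overlapped them. EPHA2 fell by 0.62 at D3 (SE 0.13, adjusted p = 0.00729; 0.0575 without D3 replicate 2 and 0.0753 in a fit of the compared groups alone) and by 0.75 at D28 (SE 0.11, adjusted p = 0.000788), and D28WO was higher than D28 by 0.50 (adjusted p = 0.0099). At D14 and in D28WO the log2 fold changes were -0.41 (adjusted p = 0.0831) and -0.25 (adjusted p = 0.0907), which passed with quantile normalization (adjusted p = 0.017 and 0.00111) and with median-ratio size factors (0.0116 and 0.000741).

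In U251 EPHA2 was at 106, 106 and 108 TPM in Untreated, 118, 93.1 and 111 at D3, 118, 128 and 134 at D14, 105, 105 and 110 at D28 and 89.4, 94.1 and 97.3 in D28WO. D14 stood above all Untreated libraries and D28WO below them. The rise at D14 was 0.25 (adjusted p = 0.0399). It did not pass without any of 5 of 6 libraries (adjusted p = 0.0757 to 0.144), without the D28WO group (0.0599), without a filter (0.0646) or with median-ratio size factors (0.218). D14 was higher than D3 by 0.24 with overlapping libraries (adjusted p = 0.0377; 0.0919 to 0.136 without any of 3 of 6, and 0.0564 without the D28WO group). D28 fell by 0.24 from D14 (adjusted p = 0.0409; 0.0614 to 0.146 without any of 5 of 6, and 0.0619 without the D28WO group). In D28WO the log2 fold change was -0.19 against Untreated (adjusted p = 0.0938).

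DDR1, a receptor activated by collagen (6:30876421-30900156, plus strand), was the highest of the 10 in Untreated U251. There it was at 290, 287 and 290 TPM in Untreated, 132, 153 and 144 at D3, 207, 240 and 210 at D14, 133, 140 and 137 at D28 and 203, 211 and 216 in D28WO. All other libraries lay below Untreated, and D3 and D28 lay below D14 and D28WO. DDR1 fell by 1.01 at D3 (SE 0.06, adjusted p = 2.94e-08), by 0.40 at D14 (adjusted p = 0.00051), by 1.07 at D28 (adjusted p = 1.45e-08) and by 0.46 in D28WO (adjusted p = 9.05e-05). It was higher by 0.61 at D14 than at D3 (adjusted p = 1.22e-05), fell by 0.67 from D14 to D28 (adjusted p = 5.87e-06) and was higher by 0.61 in D28WO than at D28 (adjusted p = 1e-05). In U87 DDR1 was at 68.6, 79.5 and 81.0 TPM in Untreated, 79.2 and 84.2 at D3, 86.9 and 91.9 at D14, 76.2, 99.4 and 85.0 at D28 and 58.7, 51.7 and 69.0 in D28WO. D28WO was lowest but overlapped Untreated by a single library, and D28WO and D28 did not overlap. DDR1 fell by 0.35 in D28WO against Untreated (adjusted p = 0.0322; 0.0808 to 0.129 without any of 4 of 6 libraries, 0.0587 without a filter and 0.0501 in a fit of the compared groups alone) and by 0.53 against D28 (adjusted p = 0.00988).

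**Figure D3:**
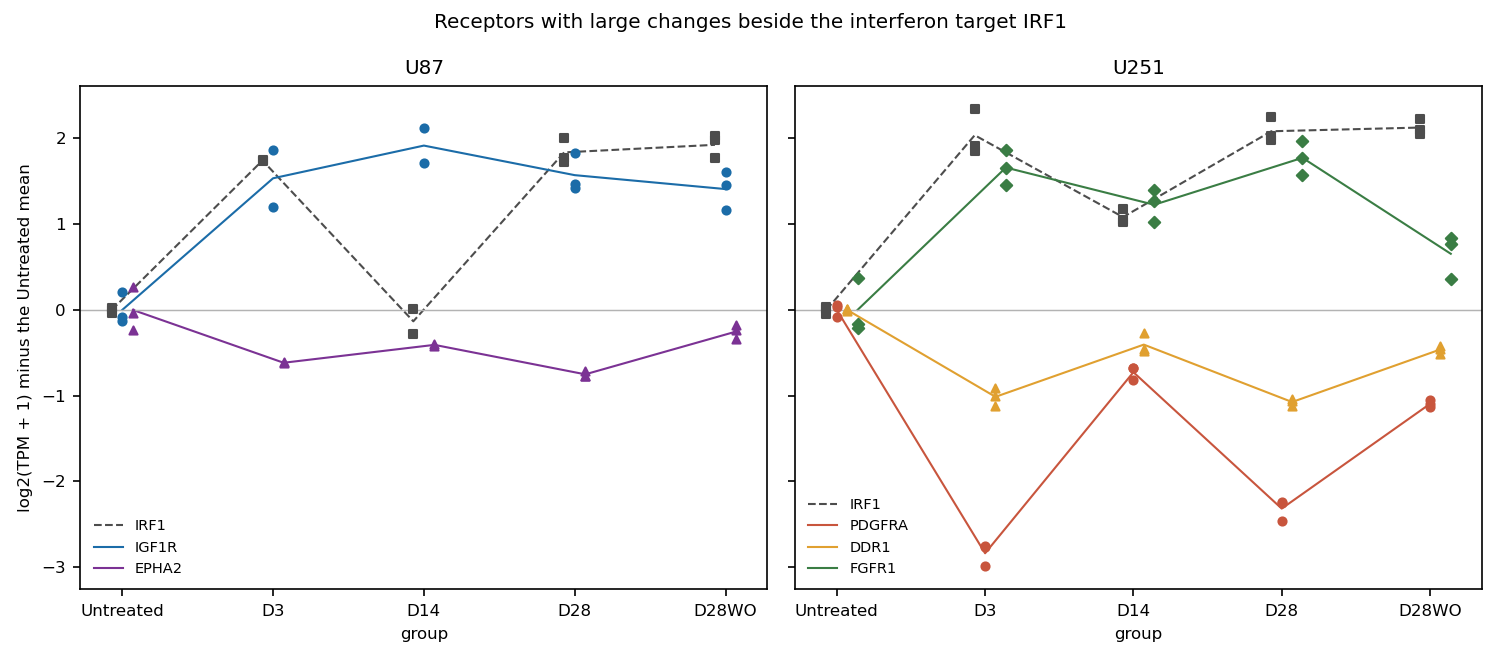
Log2(TPM + 1) minus the Untreated mean for IGF1R and EPHA2 in U87 and for PDGFRA, DDR1 and FGFR1 in U251, over the 5 groups, with IRF1 as a dashed line; each point is 1 library and each line joins group means. PDGFRA and DDR1 were lowest at D3 and D28 (PDGFRA -2.84 and -2.32, DDR1 -1.01 and -1.07), FGFR1 was highest there (1.66 and 1.77), and IGF1R stayed up at D14 of U87 (1.92) where the IRF1 libraries overlapped Untreated.

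Over the 15 libraries of U251 log2(TPM + 1) of PDGFRA and DDR1 had a Pearson r of 0.955, and FGFR1 had -0.842 with PDGFRA and -0.892 with DDR1, whereas MET, IGF1R and EPHA2 had values between -0.091 and 0.136 with PDGFRA and DDR1. Over the 13 U87 libraries the r was 0.874 for PDGFRB and DDR1, 0.801 for PDGFRB and MET, -0.711 for IGF1R and EPHA2 and -0.75 for EGFR and AXL. These are descriptions over libraries that share their groups and their scaling to a fixed total. By the moderated F statistic over the 5 groups, IGF1R stood above 95.2% of the genes tested in U87 and PDGFRA above 99.8% and DDR1 above 98.3% of those in U251. The genes most like PDGFRA over the U251 libraries were SORL1 (r = 0.993), a sorting receptor, COL5A2 (0.989), a fibrillar collagen chain, and S100A10 (0.985), a partner of annexin A2. Those most like IGF1R over the U87 libraries were ENSG00000289155 (0.955), the transcription factor gene EBF1 (0.954) and ENSG00000261135 (0.943).

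Ligands of the receptors changed in both lines, and of the 9 ErbB ligands betacellulin (BTC), a ligand of EGFR, had the largest log2(TPM + 1) change that passed against Untreated in each line. In U87 BTC was at 5.57, 4.64 and 4.90 TPM in Untreated, 21.7 and 27.7 at D3, 4.24 and 5.11 at D14, 22.7, 24.2 and 24.0 at D28 and 33.3, 29.7 and 30 in D28WO. It was high wherever the interferon reference genes were high and rose by 2.08 at D3 (adjusted p = 4.42e-06), 2.03 at D28 (adjusted p = 1.6e-06) and 2.41 in D28WO (adjusted p = 2.49e-07). In U251 BTC was at 9.97, 9.87 and 8.03 TPM in Untreated, 40.1, 39.7 and 42.9 at D3, 25.1, 24.1 and 25.7 at D14, 54.5, 52.3 and 52.6 at D28 and 30.8, 34.2 and 32.3 in D28WO. It rose in all 4 groups there, by 2.03, 1.34, 2.40 and 1.70 (adjusted p = 6.87e-10, 1.84e-07, 9.99e-11 and 5.73e-09).

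Of all genes tested 12.4%, 4.14%, 17.2% and 28.6% rose and 4.28%, 1.02%, 6.55% and 13.4% fell in U87 at D3, D14, D28 and D28WO, and 24.9%, 13.8%, 25.9% and 14.3% rose and 16%, 7.31%, 14.7% and 13.4% fell in U251, and the counts of each gene list stand beside these shares. Of the 9 ErbB ligands, 3, 0, 2 and 4 rose and 2, 1, 2 and 3 fell in U87 at D3, D14, D28 and D28WO, and 3, 3, 4 and 2 rose and 3, 0, 2 and 3 fell in U251. Their median log2 fold change was 0.23, -0.07, 0.23 and 0.75 in U87 and 0.21, 0.33, 0.62 and 0.05 in U251, to be read, as all list medians here, beside the medians of all genes given with the counts of receptors. Beside BTC, neuregulin 1 (NRG1), the ligand of ErbB partners of ERBB2, rose in D28WO of U87 from 74.0 to 227 TPM (1.61, adjusted p = 3.08e-06) and epiregulin (EREG) from 139 to 335 (1.26, adjusted p = 1.76e-06). Amphiregulin (AREG) of U87 averaged 0.189 TPM in Untreated, 0.859 at D28 and 2.68 in D28WO. HBEGF, a heparin-binding EGFR ligand, fell in U251 from 53.0 to 18.8 TPM in D28WO (-1.44, adjusted p = 2.55e-08). TGFA had the highest Untreated level of the 9 in each line. In U87 it averaged 192 TPM in Untreated and 132, 130, 142 and 107.5 at D3, D14, D28 and D28WO. In U251 it averaged 199 TPM in Untreated and 164, 266, 176 and 105 in the same order. In D28WO it fell by 0.83 in U87 (adjusted p = 7.89e-05) and 0.91 in U251 (adjusted p = 1.22e-07). EREG of U251 averaged 0.293 TPM in Untreated and 1.72 at D3, and AREG, listed at 0 in all Untreated U251 libraries, averaged 1.40 TPM at D28. These low values reached the level tested through the groups where they are high, so they are given without a test, although the counts of ErbB ligands include them.

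PDGFD, a ligand of PDGFRB, in U251 was at 52.2, 55.2 and 52.7 TPM in Untreated, 9.08, 9.81 and 8.31 at D3, 33.4, 35.6 and 35.5 at D14, 20.0, 20.0 and 17.0 at D28 and 8.73, 7.76 and 9.90 in D28WO. It lay below Untreated in every other library and was as low in D28WO as at D3, with a fall of 2.48 (adjusted p = 7.9e-10). In U87 PDGFD and PDGFB stayed under the level tested and none of the other 2 PDGF ligands passed with limma in any group (0, 0, 1 and 0 had an unadjusted p under 0.05). In U251 0, 1, 0 and 0 of the 4 rose and 1, 2, 1 and 2 fell, with medians of -0.40, -0.20, -0.61 and -0.22.

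HGF, the ligand of MET, was present in U87 only, at 135, 151 and 148 TPM in Untreated, 59.5 and 46.7 at D3, 129 and 127 at D14, 57.9, 62.2 and 58.1 at D28 and 80.0, 94.3 and 96.8 in D28WO, and it was at most 0.0761 TPM in any U251 library. Its libraries of D3, D28 and D28WO lay below all others, and it fell by 1.44, 1.27 and 0.68 there (adjusted p = 6.18e-06, 4.58e-06 and 0.000236). GAS6, a ligand of AXL, fell in U251 from 76.3 TPM in Untreated to 27.4 (D3), 54.7 (D14), 35.2 (D28) and 40.8 TPM (D28WO) (-1.46 at D3, adjusted p = 6.59e-07), and PROS1, which encodes protein S, fell from 111 to 54.2 TPM at D3 (-1.02, adjusted p = 1.29e-07). Both passed as lower in all 4 groups of U251. In U87 the counts lower were 1, 0, 1 and 1 of 3, all of them HGF, and none rose, with 0 at an unadjusted p under 0.05 at D14. The medians were -0.28, 0.06, -0.21 and -0.22 in U87 and -1.24, -0.57, -0.98 and -0.87 in U251.

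FGF2, a broadly acting ligand of FGFR1, rose in both lines. In U87 it was at 27.4, 32.5 and 29.1 TPM in Untreated, 91.7 and 81.8 at D3, 34.0 and 31.8 at D14, 64.7, 63.1 and 71.6 at D28 and 144, 154 and 132 in D28WO, with rises of 1.52, 1.14 and 2.23 at D3, D28 and D28WO (adjusted p = 2.37e-06, 6.48e-06 and 2.31e-08). In U251 it averaged 39.7 TPM in Untreated and 89.8, 61.4, 82.7 and 81.7 TPM in the other groups, and rose in each (1.16 at D3, adjusted p = 3.64e-08). FGF7, a ligand made by mesenchymal cells, rose from 12.6 to 41.0 TPM at D3 of U87 (1.66, adjusted p = 0.00265) and from 0.693 to 8.86 TPM at D28 of U251 (2.51, adjusted p = 5.28e-05). FGF5 fell in D28WO of U87 from 35.1 to 13 TPM (-1.35, adjusted p = 0.00121) and of U251 from 14.0 to 3.14 (-1.78, adjusted p = 0.000245). FGF18 rose from 2.22 to 12.6 TPM in D28WO of U87 (2.08, adjusted p = 2.51e-05), and FGF1 fell from 24.4 to 11 TPM at D14 of U251 (-1.13, adjusted p = 0.00266). The FGF ligands were listed by family, whether or not they bind FGFR1. Of 5 FGF ligands tested, 2, 0, 1 and 3 rose and 1, 0, 1 and 2 fell in U87, and 2, 2, 2 and 1 rose and 2, 1, 1 and 1 fell in U251. At D14 of U87, where limma called 0, the unadjusted p was under 0.05 for 1. Medians were 0.30, -0.01, 0.18 and 0.82 in U87 and 0.59, 0.61, 0.55 and -0.06 in U251.

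IGF1 and IGF2 were under the level tested in both lines, and the 6 binding proteins that hold these ligands outside the cell were tested. In U87 none rose at D3, D14 or D28 and 1 in D28WO, while 4, 1, 4 and 4 fell. IGFBP2 fell there from 27 to 7.32 TPM at D28 (-1.78, adjusted p = 0.000206) and IGFBP5 from 5.83 to 2.26 at D3 (-1.07, adjusted p = 0.0433; 0.0578 without the D14 group and 0.0542 without the D28WO group). In U251 2 rose in every group and 3, 3, 2 and 1 fell. Medians were -0.61, -0.18, -0.41 and -0.30 in U87 and -0.40, -0.20, 0.00 and 0.09 in U251. IGFBP4 rose there from 15.8 to 117 TPM at D28 (2.84, adjusted p = 6.26e-10) and IGFBP5 fell from 453 to 180 TPM at D28 (-1.33, adjusted p = 1.25e-06). Among the ephrin-A ligands of EPHA2, EFNA1 was at 46.5 TPM in Untreated U251 and 20.2, 30.5, 15.6 and 45.6 TPM thereafter, a fall of 1.53 at D28 (adjusted p = 1.98e-06), whereas EFNA2 rose from 0.502 to 3.46 TPM at D3 (1.55, adjusted p = 0.000225) and EFNA5 from 0.518 to 4.78 at D28 (1.70, adjusted p = 0.0147). Of the 5 ephrin-A genes 1, 0, 2 and 0 rose and 3, 1, 2 and 1 fell in U251, and of the 3 tested in U87 0, 0, 1 and 0 rose and 0, 0, 0 and 1 fell, with 0 at an unadjusted p under 0.05 at D3 and D14. Medians were 0.18, 0.15, 0.26 and -0.36 in U87 and -0.37, 0.23, -0.05 and -0.25 in U251.

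**Figure D4:**
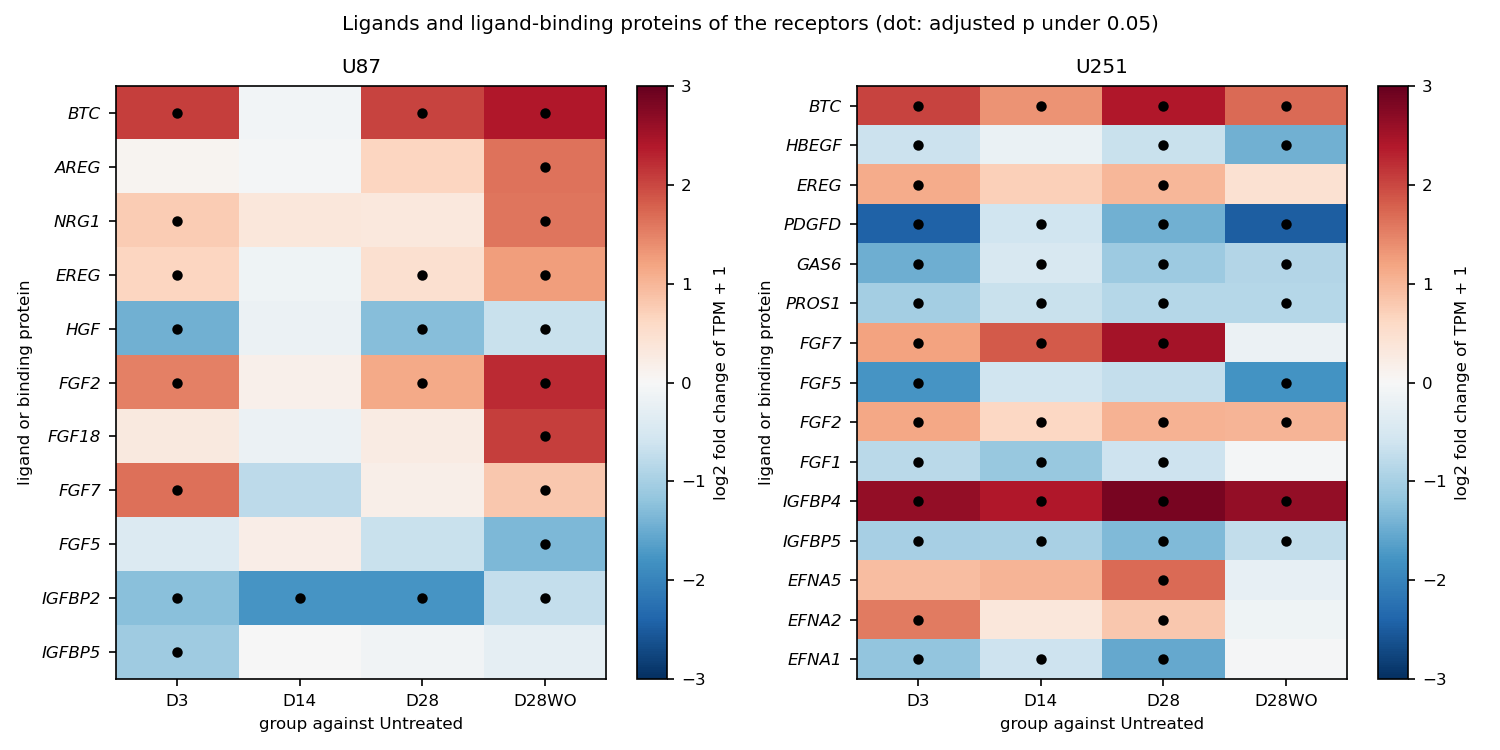
Log2 fold change of TPM + 1 against Untreated for the named ligands and binding proteins (rows) at D3, D14, D28 and D28WO (columns), in U87 and U251, with red higher, blue lower and a dot where the adjusted p is under 0.05. BTC reached 2.41 in U87 and 2.40 in U251, FGF2 2.23 in U87, IGFBP4 2.84 in U251 and PDGFD -2.48 in U251.

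The other 48 receptor tyrosine kinases of the human genome gave 32 tested genes in U87, of which 2, 3, 5 and 5 rose and 1, 0, 4 and 4 fell at D3, D14, D28 and D28WO, and 34 in U251, of which 7, 7, 10 and 2 rose and 10, 4, 13 and 10 fell. Their median log2 fold changes were 0.14, 0.09, 0.09 and 0.02 in U87 and -0.17, 0.05, -0.18 and -0.29 in U251, beside the medians of all genes given above. In D28WO of U87 the 5 rises among 32 stand beside 28.6% of all genes and the 4 falls beside 13.4%. FGFR2, a relative of FGFR1, was at 0, 0.112 and 0 TPM in Untreated U87, 7.73 and 4.65 at D3, 0.200 and 0.081 at D14, 14.1, 8.44 and 15.3 at D28 and 13.9, 10.1 and 12.7 in D28WO. It was near 0 in Untreated and D14 and at 4.65 TPM or more in all libraries of the other groups. It reached the level tested only through those groups, so it is described without a test, although it is among the rises counted. ROS1, an orphan-type receptor kinase, rose in U87 from 3.59 to 21.8 TPM at D28 (2.31, adjusted p = 2.07e-06), CSF1R, the macrophage colony-stimulating factor receptor, fell from 55.2 to 16.9 TPM in D28WO (-1.69, adjusted p = 9e-05) and EPHA3 from 7.06 to 1.19 TPM (-1.93, adjusted p = 0.000646). In U251 NTRK3, a neurotrophin receptor, was at 62.3 TPM in Untreated and 12.4, 28.0, 9.59 and 30.5 TPM thereafter, a fall of 2.61 at D28 (adjusted p = 8.42e-08), NTRK2 rose from 0.669 to 7.47 TPM at D28 (2.36, adjusted p = 2.67e-06), EPHB1 from 0.708 to 6.41 at D3 (2.07, adjusted p = 3.02e-05), and ALK fell from 8.53 to 1.48 TPM in D28WO (-1.93, adjusted p = 0.000114).

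Among 15 adaptors and docking proteins, 1, 1, 3 and 5 rose and 1, 1, 2 and 3 fell in U87 and 2, 0, 2 and 3 rose and 0, 0, 2 and 0 fell in U251, where 1 had an unadjusted p under 0.05 at D14. Medians were 0.25, 0.12, 0.15 and 0.25 in U87 and 0.10, 0.01, -0.12 and 0.05 in U251. The docking protein GAB2 was at 5.46, 6.07 and 4.4 TPM in Untreated U87 and 23.6, 22.0 and 27.2 in D28WO (2.00, adjusted p = 0.000382), with IRS2, which docks to IGF1R, from 10.8 to 24.7 (1.13, adjusted p = 0.000117) and the RAS activator SOS1 from 59.1 to 120 (1.01, adjusted p = 9.17e-05). In the PI3K-AKT list of 15 genes, 2, 1, 3 and 6 rose and 1, 0, 2 and 1 fell in U87, where the catalytic subunit PIK3CD rose from 40.4 to 88.5 TPM in D28WO (1.10, adjusted p = 0.000265). In U251 4, 2, 4 and 3 rose and 2, 2, 4 and 2 fell, and 2 regulatory subunits moved in opposite directions at D28, PIK3R3 from 9.88 to 30.4 TPM (1.54, adjusted p = 1.03e-05) and PIK3R2 from 121 to 57.9 (-1.06, adjusted p = 5.81e-05). The 10 genes of the RAS-ERK branch gave 0, 0, 1 and 2 rises and 1, 0, 3 and 5 falls in U87, and 2, 1, 1 and 2 rises and 3, 0, 3 and 1 falls in U251, none of them by more than 1 on the log2 scale. At D14 of U87, with 0 called, 1 had an unadjusted p under 0.05. Medians were -0.13, 0.01, -0.14 and -0.21 in U87 and 0.02, 0.05, -0.11 and 0.12 in U251 for this branch, and 0.05, 0.11, 0.06 and 0.04 in U87 and 0.16, 0.05, -0.10 and 0.10 in U251 for the PI3K-AKT list.

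Genes listed as feedback inhibitors moved in both directions, and whether each of them acts as an inhibitor in these cells was not tested. Of 20 tested in U87, 2, 1, 2 and 7 rose and 3, 1, 4 and 6 fell, with LRIG2 from 8.09 to 20.7 TPM (1.26, adjusted p = 0.000422), the ubiquitin ligase CBL from 14.6 to 30.9 (1.03, adjusted p = 5.13e-05) and SPRY1 from 9.57 to 3.60 (-1.22, adjusted p = 0.00422), all in D28WO, and the phosphoinositide phosphatase INPP4B from 10.1 to 3.88 at D28 (-1.19, adjusted p = 0.00215). Of 19 tested in U251, 5, 6, 5 and 4 rose and 7, 1, 5 and 10 fell. Medians were 0.06, -0.03, -0.03 and 0.06 in U87 and -0.10, 0.17, 0.03 and -0.32 in U251. DUSP4, a phosphatase of ERK, was at 7.61, 7.36 and 5.63 TPM in Untreated U251, 31.5, 26.9 and 27.1 at D3, 20.8, 16.8 and 20.1 at D14, 43.0, 41.2 and 38.7 at D28 and 9.26, 9.18 and 9.31 in D28WO. It rose at D3, D14 and D28 (2.42 at D28, adjusted p = 3.15e-09) and in D28WO was higher than Untreated by 0.39 (adjusted p = 0.0287). SPRY1, a Sprouty inhibitor, rose in U251 from 10.9 to 42.4 TPM at D28 (1.87, adjusted p = 2.42e-07), while DUSP5 fell from 46.0 to 17.4 (-1.36, adjusted p = 0.000102) and SPRED3 from 20.0 to 7.75 TPM (-1.26, adjusted p = 3.09e-05) in D28WO.

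Of 10 genes that respond to ERK activity, 4, 3, 6 and 0 rose and 4, 2, 4 and 6 fell in U251 at D3, D14, D28 and D28WO, with medians of 0.16, 0.14, 0.48 and -0.44. ETV1, an ETS transcription factor, was at 15, 17.3 and 18.1 TPM in Untreated U251, 53.8, 69.5 and 56.7 at D3, 56.1, 39.3 and 55.0 at D14, 86.5, 90.6 and 81.9 at D28 and 10.7, 11.5 and 7.06 in D28WO. Libraries of D3, D14 and D28 lay above Untreated and those of D28WO below it, with a rise of 2.30 at D28 (adjusted p = 1.4e-07) and a fall of 0.75 in D28WO (adjusted p = 0.00455). The immediate-early genes FOS and EGR1 fell at D3 of U251, from 373 to 81.7 TPM (-2.21, adjusted p = 6.38e-08) and from 316 to 70.5 TPM (-2.16, adjusted p = 2.36e-09), and IER3 rose from 1.14 to 6.58 at D14 (1.80, adjusted p = 0.00011). In U87 0, 1, 1 and 3 rose and 0, 0, 1 and 3 fell, with 3 at an unadjusted p under 0.05 at D3 and medians of -0.07, -0.07, -0.03 and -0.13, and FOS rose from 138 to 356 TPM at D14 (1.36, adjusted p = 0.000208). Among 9 receptor phosphatases and sheddases, 0, 0, 3 and 4 rose and 1, 0, 1 and 1 fell in U87, and 2 rose in each group while 5, 2, 7 and 5 fell in U251. At D14 of U87, with 0 called, 3 had an unadjusted p under 0.05, and medians were 0.22, 0.16, 0.05 and 0.29 in U87 and -0.24, -0.07, -0.26 and -0.36 in U251. PTPRF, a receptor phosphatase, fell there from 167 to 69.1 TPM at D28 (-1.26, adjusted p = 2.16e-08) and PTPRG from 46.3 to 18.8 TPM in D28WO (-1.26, adjusted p = 4.51e-06).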

How the data were processed

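RNA of 28 libraries was used, grouped by line and treatment from the labels, and the study describes independent biological triplicates. RNA was prepared with a TruSeq kit and sequenced as paired reads on an Illumina HiSeq instrument. Per the labels and the study's methods, reads were checked with FastQC, trimmed with Trim Galore, aligned to GRCh38 with STAR, counted with featureCounts and normalized with edgeR. The deposited values are TPM, 1 table per line; how the authors computed TPM, and whether counting used strand, is not given in the sources used here, and a supplementary sheet calls the same matrices CPM. The study's methods set a minimum of reads per sample, but TPM keeps no depth of the single library, so no counting interval is given. Among the U87 columns, 2 share a name and were not used.

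A gene was kept for a line where its average over that line's libraries reached 0.5 TPM, and was tested on log2(TPM + 1) with limma 3.58.1 (trend on the mean level) in R 4.3.3, 1 fit per line over its 5 groups, with 7 contrasts and Benjamini-Hochberg adjusted p. This differs from the study's limma-voom, which needs counts. Self-tests on simulated data were run first. Tables and figures used Python 3.11.15, numpy 2.4.6, pandas 2.3.3 and matplotlib 3.10.9. Gene positions are from GENCODE, build GRCh38. Alternatives were array weights, fits of the compared groups alone, size factors by the median-ratio method, quantile normalization, a pseudocount of 0.1, a filter at 1 TPM or none, a replicate block and each library left out in turn; fits without D14 or without D28WO were chosen after seeing the data.

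The receptors and gene lists were chosen with earlier results of these data known. Beside the 10 receptors and IRF1, the text names up to 4 genes per list and line with the largest fold change among those with an adjusted p under 0.05, an absolute log2 fold change over 1 and libraries apart from Untreated, and the 3 genes most correlated with the receptor of largest F in each line. TGFA is named for its level, and other levels of those genes, and the marker genes, are named as values. An item of the interferon reference list is not reported here.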

Additional observations from a re-analysis of the deposited data

Results flagged for a closer look

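The U87 and U251 libraries lay on opposite sides of their own Untreated libraries for 13 pairs of changes: all libraries of a group were higher in a line and all lower in the other. Of all genes tested in both lines 6.77%, 6.41%, 6.46% and 6.22% met the same rule at D3, D14, D28 and D28WO, and 2, 4, 3 and 4 of the 10 receptors did. The difference between the lines was not tested, because their tables were normalized separately. For EGFR the log2 fold change was 0.27 in U87 and -0.39 in U251 at D3, 0.22 and -0.41 at D14, 0.44 and -0.44 at D28, and 0.32 and -0.23 in D28WO. For AXL it was -0.30 and 0.37 at D3, -0.26 and 0.17 at D28, and -0.34 and 0.25 in D28WO. For ERBB2 it was 0.50 and -0.16 at D14 and 0.85 and -0.24 in D28WO, and for IGF1R it was 1.57 and -0.34 at D28 and 1.41 and -0.32 in D28WO. At D14 it was -0.41 and 0.25 for EPHA2 and 0.23 and -0.40 for DDR1. The U87 value of DDR1 was 0.08 relative to the median of all genes. Several of these values did not pass with limma: in U87 EGFR at D3 and D14 (adjusted p = 0.0547 and 0.169), ERBB2 at D14 (0.386), EPHA2 at D14 (0.0831) and DDR1 at D14 (0.334), and in U251 ERBB2 at D14 and in D28WO (0.24 and 0.0733) and IGF1R at D28 and in D28WO (0.302 and 0.381). Relative to the median of all genes of its line, the EGFR values of U87 were 0.07, 0.07, 0.25 and 0.06 at D3, D14, D28 and D28WO, and the AXL value of U251 at D28 was 0.0079.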

How the results depend on the processing

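The number of receptors that passed moved by over 1.5 times under another setting in 5 of the 14 comparisons. At D3 of U87 it went from 3 to 1 in a fit of the 2 groups alone, at D14 of U87 from 1 to 2 with quantile normalization, median-ratio size factors or array weights, and between D28 and D14 of U87 from 0 to 1 with quantile normalization. In U251 it went from 5 to 2 between D14 and D3 in a fit of the 2 groups alone and from 6 to 3 between D28 and D14 without a filter. Leaving out a library gave 1 to 4 at D3 of U87 (1 without D3 replicate 2), 1 to 2 at D14 of U87 (2 without Untreated replicate 3), 3 to 6 in D28WO of U251 (3 without Untreated replicate 2 or D28WO replicate 3) and 3 to 4 between D28 and D14 of U251 (3 without D28 replicate 1 or 3). The cause was not tested. Of the 59 receptor changes that passed, 550 values under other settings gave 508 on the same side of the threshold and 42 on the other, and 350 values without a library gave 278 and 72, with no change of direction. PDGFRA and DDR1 of U251 against Untreated, FGFR1 of U251 at D3, D14 and D28, IGF1R of U87 and EGFR of U251 at D3, D14 and D28 passed in every setting and without any library. The replicate numbers did not pair libraries (r of deviations from -0.058 to 0.0472 in U87 and -0.0375 to 0.048 in U251, with 7 of 13 and 6 of 15 libraries closest to their own number). With the replicate block the count was the same in 11 of 14 comparisons and went from 4 to 5 at D28 of U87, from 6 to 7 in D28WO of U251 and from 6 to 5 between D28 and D14 of U251. Scaling moved the share of higher calls among all genes called from 74.4%, 80.2%, 72.5% and 68.2% at D3, D14, D28 and D28WO of U87 to 52.7%, 55.3%, 49.6% and 45.5% with quantile normalization and 48.5%, 57.6%, 46.6% and 49.2% with median-ratio size factors. In U251 it moved from 60.9%, 65.4% and 63.9% at D3, D14 and D28 to 49.6%, 50.2% and 47.7%, and to 50.6%, 49.7% and 51.8%. Between D28WO and D28 of U251 it moved from 35.5% to 51.8% and 48.2%, and between D14 and D3 of U87 from 30.7% to 41.5% with quantile normalization. Low receptors, such as PDGFRA in U87 and PDGFRB in U251, rest on few TPM, and without the depth of each library their counting error is not given.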
